A study of Mus musculus with 12 samples.

Results

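Fusion cells depleted of Nizp1 expressed Hoxa9, Hoxa10, Kcnc1 and Eya4, all at or near 0 with the empty vector, at levels for which no difference from fusion cells with Nizp1 was called. The 6 Nizp1-depleted fusion libraries (3 with shNizp1#1 and 3 with shNizp1#2, taken as 1 group) were compared with the 3 empty-vector libraries, so that 9 of the 12 libraries of the series entered, and libraries that share a replicate number were matched. All cells were mouse bone marrow progenitors sorted as c-Kit+/Sca-1+/Lin-, kept in RPMI to which SCF (100 ng/ml), IL-3 (20 ng/ml) and IL-6 (20 ng/ml) had been added, and infected with retrovirus from Phoenix packaging cells. The depleted cells carried a retroviral NUP98-NSD1 construct and, after geneticin selection, a pLKO.1-puro vector with 1 of 2 shRNAs against Nizp1. The empty-vector cells carried the MSCV retrovirus with no insert and the control shRNA, and the remaining 3 libraries, used for comparison, carried NUP98-NSD1 and the control shRNA. No empty-vector cells with an shRNA against Nizp1 were analysed here, so the comparison joins the effect of the fusion and that of the depletion. The labels speak of independent experiments without naming animals, they do not say that a replicate number marks an experiment, and p-values reflect only how these libraries spread.

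NUP98-NSD1 joins a nucleoporin to NSD1, an enzyme that methylates lysine 36 of histone H3, and is found in acute myeloid leukaemia, where high HOXA gene expression is its known mark. Hox genes of the A cluster encode homeodomain transcription factors that are active in stem and early progenitor cells and are shut off as myeloid cells mature. Nizp1 is a zinc finger protein that binds NSD1, and its gene is listed as Zkscan17. The sorted starting cells are stem and progenitor cells, but after culture the libraries held abundant mast cell transcripts: a list of 22 mast cell genes took 4.93% to 6.21% of the counts in depleted cells, 5.21% to 6.65% in fusion cells with the control shRNA and 5.50% to 7.04% in empty-vector cells.

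The promoters of the 3 HoxA genes that rose, and of the channel gene Kcnc1 and the phosphatase and transcriptional coactivator gene Eya4, are shown because these 5 genes define the programme and were each lowest in replicate 2 of every fusion group. Each window runs from 250 bases before to 50 after the annotated start, 5′ to 3′ on the gene's strand, and comes from RefSeq on GRCm38.p6. The windows are Hoxa10 at chr6:52240805-52241104, Hoxa9 at chr6:52227321-52227620, Hoxa7 at chr6:52218524-52218823 and Eya4 at chr10:23349894-23350193, all on the minus strand, and Kcnc1 at chr7:46396218-46396517 on the plus strand. Capitals mark matches to TTTAT, the core letters that HOXA9-type homeodomains are known to prefer, and both strands were searched.
Hoxa10: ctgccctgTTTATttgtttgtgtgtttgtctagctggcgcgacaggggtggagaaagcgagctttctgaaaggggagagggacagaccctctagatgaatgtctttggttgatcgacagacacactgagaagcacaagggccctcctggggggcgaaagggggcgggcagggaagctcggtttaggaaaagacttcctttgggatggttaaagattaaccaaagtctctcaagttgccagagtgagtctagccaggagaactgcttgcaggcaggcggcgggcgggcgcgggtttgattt
Hoxa9: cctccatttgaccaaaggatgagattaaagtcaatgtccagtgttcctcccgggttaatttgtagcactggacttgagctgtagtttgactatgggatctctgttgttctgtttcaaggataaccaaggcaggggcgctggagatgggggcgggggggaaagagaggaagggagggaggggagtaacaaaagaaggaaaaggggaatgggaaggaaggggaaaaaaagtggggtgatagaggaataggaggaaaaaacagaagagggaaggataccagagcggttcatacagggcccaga
Hoxa7: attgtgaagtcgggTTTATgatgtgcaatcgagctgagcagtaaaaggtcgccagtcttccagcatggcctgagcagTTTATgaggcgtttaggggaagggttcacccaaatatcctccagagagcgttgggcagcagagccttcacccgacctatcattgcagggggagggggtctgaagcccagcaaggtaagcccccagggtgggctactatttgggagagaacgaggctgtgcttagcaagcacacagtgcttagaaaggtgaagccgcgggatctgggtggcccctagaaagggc
Kcnc1: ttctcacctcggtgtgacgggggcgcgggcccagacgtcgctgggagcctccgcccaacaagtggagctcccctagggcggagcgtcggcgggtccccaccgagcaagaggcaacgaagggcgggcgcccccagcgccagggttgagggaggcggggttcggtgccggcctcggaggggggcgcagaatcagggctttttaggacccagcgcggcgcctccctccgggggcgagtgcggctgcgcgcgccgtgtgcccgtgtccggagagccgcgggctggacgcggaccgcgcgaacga
Eya4: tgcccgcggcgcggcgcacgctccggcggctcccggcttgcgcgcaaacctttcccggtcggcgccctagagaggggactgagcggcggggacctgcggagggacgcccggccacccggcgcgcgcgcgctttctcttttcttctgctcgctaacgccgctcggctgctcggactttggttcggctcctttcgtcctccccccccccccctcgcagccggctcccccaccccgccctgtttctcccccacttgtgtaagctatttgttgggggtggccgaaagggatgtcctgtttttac
TTTAT was found 1 time in the Hoxa10 window, 2 times in the Hoxa7 window and 0 times in the other 3. Of all 32851 promoter windows of this length, 40.0% held it, and so did 27.5% of the 51 windows of the 36 higher genes that had one. TGACAG, the letters bound by MEIS-type cofactors, and TGATTNAT, those bound by PBX-HOX pairs, were in 0 of the 5 windows, against 19.2% and 3.22% of all windows. The Hoxa9 window held 4 CG dinucleotides and was 49.7% G or C, whereas the Kcnc1 window held 41 and was 74.7% G or C, so the windows differ widely in base composition.

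Zkscan17 (chromosome 11, 59485520 to 59506644) was lower in every depleted library than in every other library. It was at 35.0, 26.2 and 30.4 CPM (counts scaled to library size) with shNizp1#1 and at 29.0, 17.6 and 27.0 CPM with shNizp1#2 in replicates 1, 2 and 3. In fusion cells with the control shRNA it was at 62.6, 49.4 and 61.8 CPM, and in empty-vector cells at 64.2, 57.0 and 68.2 CPM. The log2 fold change over empty vector was -1.22 (SE 0.14, adjusted p = 0.00587, edgeR quasi-likelihood test with Benjamini-Hochberg adjustment, here as everywhere below), and over fusion cells with the control shRNA it was -1.09 (95% interval -1.31 to -0.87, adjusted p = 3.57e-04). Without empty-vector replicate 3 the decrease against the empty vector was not called (adjusted p = 0.0821). Exons of 4933439C10Rik, with 844 counts over the 12 libraries against 2709 of Zkscan17, lie on the opposite strand of the same bases, and the strand setting of the counting is not given in the sources used here.

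Against the empty vector, 42 genes (0.350% of the 11993 tested) were higher and 9 (0.0750%) lower in depleted fusion cells. Of these, 28 and 4 changed by 1 log2 unit or more. The median of all tested genes was -0.00. The pair and overlap counts that follow use the libraries that called the genes, so they follow in part from the call and are no added support. Each of the 3 empty-vector libraries enters 2 pairs, 1 with each shRNA, so the 6 pairs are not independent. Of the 42 higher genes, 41 were higher in all 6 pairs of libraries with the same number, against 8.37% of all tested genes, and Kcnc1 was the exception. In 28 of the 42 every depleted library lay above every empty-vector library, against 1.90% of all tested genes. Of the 9 lower genes, 8 were lower in all 6 pairs (7.34% of tested genes), with Cstdc5 as the exception, and 6 did not overlap with the empty vector (1.74%). These counts rest on the matching: without the replicate block the test called 1 gene higher, Nsd1, and 0 lower, with 643 genes at an unadjusted p under 0.05 against 1788 with the block. They also rest on single replicate numbers, since without replicate 1 or without replicate 3 of all groups 0 genes passed (with unadjusted p under 0.05 in 1932 and 985 genes), and without replicate 2 there were 27 higher and 4 lower. Single libraries moved them as well: 3 higher and 0 lower without empty-vector replicate 3, 21 and 5 without empty-vector replicate 1, 18 and 2, 31 and 4, and 12 and 4 without shNizp1#1 replicates 1, 2 and 3, and 9 and 3 and 11 and 2 without shNizp1#2 replicates 1 and 3.

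Of the 12 genes on the HoxA list, which includes the neighbouring gene Evx1, Hoxa9, Hoxa10 and Hoxa7 rose. Hoxa9, a homeodomain protein that keeps blood stem cells and myeloid leukaemia cells dividing (chromosome 6, 52223100 to 52227370), was at 14.5, 4.19 and 56.0 CPM with shNizp1#1 and at 16.5, 7.57 and 69.7 CPM with shNizp1#2. It was at 18.8, 11 and 62.8 CPM in fusion cells with the control shRNA and at 0.176, 0.746 and 0.217 CPM in empty-vector cells. Every depleted library lay above every empty-vector library, and replicate 3 was the highest in each of the 3 fusion groups. The log2 fold change was 6.13 (SE 0.55, adjusted p = 0.00225), and Hoxa9 was called in all 9 fits that leave out 1 library (4.68 to 7.38). Without replicate 3 of all groups it was 4.62 with an adjusted p of 0.119, and without replicate 1 it was 6.09 with an adjusted p of 0.0747.

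Hoxa10, the next gene of the cluster towards its 5′ end (52231197 to 52240854), had no count in any empty-vector library. It was at 4.04, 2.23 and 17.6 CPM with shNizp1#1, at 4.08, 1.70 and 16.4 CPM with shNizp1#2 and at 4.82, 2.05 and 15.1 CPM in fusion cells with the control shRNA. With 300 counts in the depleted libraries against 0, it was at least 41.5-fold higher, taking 3 counts over the empty-vector group as the floor (adjusted p = 0.00225), and again replicate 3 was the highest. The call was lost without empty-vector replicate 3 (adjusted p = 0.0584). Hoxa7 (52214498 to 52218711) held 227 counts in depleted cells, 85 in fusion cells with the control shRNA and 3 in empty-vector cells, a ratio of 31.4 for depleted over empty (95% interval 10.6 to 154, exact binomial, counting error only). Its adjusted p was 0.0499, directly under the threshold, and it was called in 2 of the 9 fits with 1 library left out, where its log2 fold change ran from 2.70 without empty-vector replicate 3 to 5.97 without empty-vector replicate 2.

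The rest of the cluster was lower in level. Per kilobase of transcript, Hoxa9 averaged 8.70 CPM per kb in depleted cells, Hoxa10 2.45 and Hoxa7 2.32, so that Hoxa9 led the cluster on a scale that allows genes to be compared. Of the 12 listed genes, these 3 passed the filter on low counts and 4, Evx1 among them, had 0 counts in all 9 libraries. Hoxa5 had 30 counts in depleted cells, 9 in fusion cells with the control shRNA and 0 in empty-vector cells, at least 4.15-fold higher in depleted over empty. Hoxa3 had 13, 11 and 0 counts in the same 3 groups, and Hoxa6 had 11, 3 and 0. Hoxa11 and Hoxa13, at the 5′ end of the cluster, had 0 counts in all 12 libraries, which at 3 counts allows up to 0.417 to 0.837 CPM per library.

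In the other Hox clusters, Hoxb5os was called. Hoxb5os, an annotated noncoding transcript of the HoxB cluster (chromosome 11, 96291024 to 96306910), was at 1.19, 0.279 and 5.69 CPM with shNizp1#1 and at 2.28, 0.155 and 7.19 CPM with shNizp1#2, and at 1.53, 0.373 and 7.65 CPM in fusion cells with the control shRNA. It had 111 counts in depleted cells against 0 in empty-vector cells, at least 15.4-fold higher (adjusted p = 0.0279), and was called in 3 of the 6 fits with 1 library left out in which it passed the filter. Per kilobase, this short transcript averaged 4.70 CPM per kb in depleted cells, below Hoxa9 (8.70) and above Hoxa10 (2.45) and Hoxa7 (2.32). Hoxb4, a homeobox factor of stem cell expansion, had 230 counts in depleted cells, 77 in fusion cells with the control shRNA and 74 in empty-vector cells, and was not called (log2 fold change 0.34, adjusted p = 0.489). Hoxb3 was below the filter with 66, 30 and 2 counts in these groups, a depleted-over-empty ratio of 13.7 (95% interval 3.65 to 116). All 9 HoxD genes were at 0 counts in all libraries. Of the Hox cofactors of the TALE class, 0 of 9 tested were called, with a median log2 fold change of 0.45. Meis1, the cofactor that joins Hoxa9 in leukaemia, averaged 112 ± 45.4 CPM in depleted cells (SD, n = 6), 116 ± 43.3 in fusion cells with the control shRNA (SD, n = 3) and 84.1 ± 24.3 in empty-vector cells (SD, n = 3), with a log2 fold change of 0.35 (adjusted p = 0.224).

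**Figure D1:**
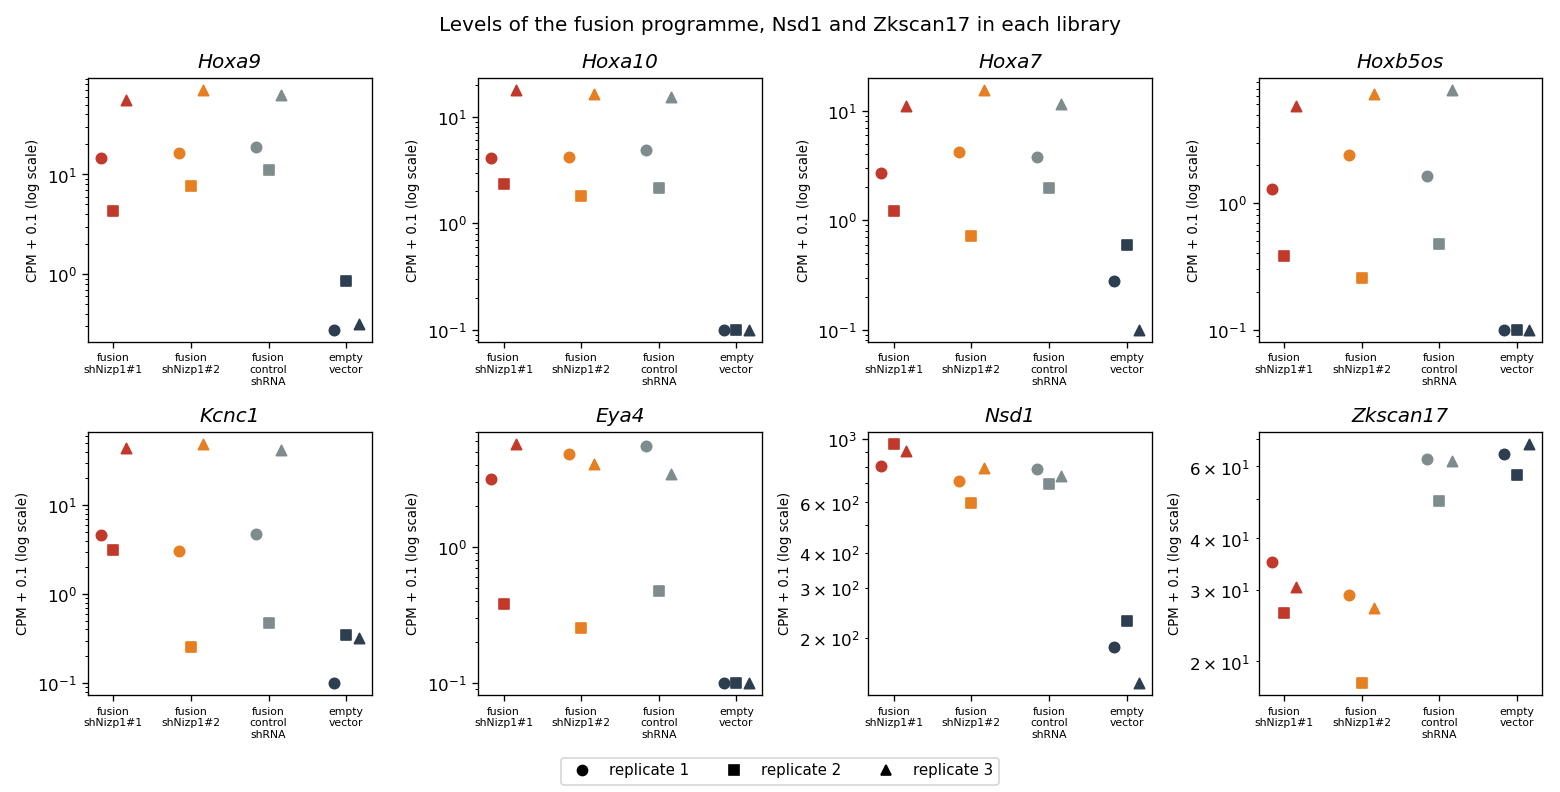
Level of 8 genes in each of the 12 libraries, as CPM with 0.1 added on a log scale, with fusion cells carrying shNizp1#1, shNizp1#2 or the control shRNA to the left of the empty vector and the marker shape giving the replicate number. Hox genes, Kcnc1 and Eya4 are lowest in replicate 2 of each fusion group, Nsd1 stays between 598 and 966 CPM in depleted cells, and Zkscan17 is low in all 6 libraries with shNizp1#1 or shNizp1#2.

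Outside the Hox clusters the programme held a channel, a developmental coactivator and several transcription factors. Kcnc1, a voltage-gated potassium channel (chromosome 7, 46396497 to 46438704), was at 4.52, 3.07 and 44.0 CPM with shNizp1#1, at 2.94, 0.155 and 49.3 CPM with shNizp1#2, at 4.60, 0.373 and 41.6 CPM in fusion cells with the control shRNA and at 0.00, 0.249 and 0.217 CPM in empty-vector cells. Replicate 3 was far above the others in every fusion group, and the shNizp1#2 library of replicate 2 lay below its empty-vector partner. With 702 counts in depleted cells against 2 the ratio was 146 (95% interval 40.2 to 1206, adjusted p = 0.0260). The call held in 3 of 9 fits with 1 library left out, and the log2 fold change ran from 4.37 without empty-vector replicate 3 to 7.57 without empty-vector replicate 2. Eya4 (chromosome 10, 23102963 to 23350786) was at 3.09, 0.279 and 5.69 CPM with shNizp1#1, at 4.73, 0.155 and 3.96 CPM with shNizp1#2, at 5.47, 0.373 and 3.34 CPM in fusion cells with the control shRNA and at 0.00 CPM in all empty-vector libraries. It was at least 15.5-fold higher in depleted cells (112 counts against 0, adjusted p = 0.0260), lowest in replicate 2 of each fusion group and, unlike Hoxa9, higher in replicate 1 than in replicate 3 with shNizp1#2 and with the control shRNA. It was called in 4 of the 9 fits.

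Among regulators of transcription, Bcl11a, a zinc finger protein that silences fetal globin genes and is needed for lymphoid development (chromosome 11, 24078056 to 24174123), averaged 10.6 ± 6.21 CPM in depleted cells, 9.18 ± 6.96 in fusion cells with the control shRNA and 1.81 ± 1.14 in empty-vector cells (SD, n = 6, 3 and 3, here and below). Its log2 fold change over empty vector was 2.52 (SE 0.38, adjusted p = 0.0260). Cxxc5, a CXXC zinc finger protein that dampens Wnt signalling (chromosome 18, 35829788 to 35861688), averaged 9.80 ± 4.48, 6.67 ± 1.91 and 1.51 ± 0.261 CPM in the same groups, and the log2 fold change was 2.57 (SE 0.33, adjusted p = 0.0107). Runx2, a runt-domain factor best known from bone (chromosome 17, 44496486 to 44814797), averaged 30.3 ± 12.0, 27.1 ± 5.69 and 8.62 ± 2.25 CPM, and the log2 fold change was 1.79 (SE 0.30, adjusted p = 0.0375). In all 3 genes every depleted library lay above every empty-vector library. Foxp1, a forkhead factor, rose by 0.60 (adjusted p = 0.0499), and Bahcc1, a reader of histone methylation, by 1.11 (adjusted p = 0.0260). Rbms3, an RNA-binding protein (chromosome 9, 116572746 to 117629913), was at 0.714, 1.95 and 9.72 CPM with shNizp1#1 and at 3.10, 1.08 and 11.9 CPM with shNizp1#2, with 2.63, 1.49 and 13 CPM in fusion cells with the control shRNA and 0.353, 0.249 and 0.434 CPM in empty-vector cells. It shared the high replicate 3 of Hoxa9 and Kcnc1, did not overlap with the empty vector and had log2 fold change 3.53 (SE 0.65, adjusted p = 0.0499). With 1 library left out, Cxxc5 was called in 8 of 9 fits, Bcl11a and Bahcc1 in 4, Rbms3 in 2 and Runx2 and Foxp1 in 1.

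Several receptors and enzymes rose as well. Il2ra, the alpha chain of the interleukin-2 receptor (chromosome 2, 11642807 to 11693193), stayed within 2.64 and 4.44 CPM in the 6 depleted libraries, against 0.353 to 0.498 CPM with the empty vector, with no overlap. Its log2 fold change was 2.93 (SE 0.46, adjusted p = 0.0267). In control-shRNA fusion cells it was at 2.41, 1.68 and 4.71 CPM. Gja5, which encodes a connexin (chromosome 3, 96904693 to 97077416), rose by 2.22 (SE 0.41, adjusted p = 0.0499), but its groups overlapped, it was called in 0 of the 9 fits with 1 library left out, and exons of Gpr89, with 1800 counts against 280 of Gja5, lie on the opposite strand of its bases. Bdh1, a mitochondrial enzyme of ketone body metabolism, rose by 1.86 (SE 0.29, adjusted p = 0.0267), and Atp2b4, a plasma membrane calcium pump, by 1.89 (SE 0.25, adjusted p = 0.0108). H2-Aa, the alpha chain of an MHC class II molecule, was at 15.2, 60.8 and 2.36 CPM with shNizp1#1, at 16.3, 105 and 5.87 CPM with shNizp1#2, at 6.57, 69.9 and 2.16 CPM in fusion cells with the control shRNA and at 4.41, 24.9 and 0.869 CPM in empty-vector cells. The groups overlapped, replicate 2 was the highest and replicate 3 the lowest in each, the reverse of Hoxa9, and within each replicate both depleted libraries were above the empty vector (log2 fold change 1.83, SE 0.30, adjusted p = 0.0306). Reads of near-identical H2 genes may have been split or dropped. Egln3, a prolyl hydroxylase of oxygen sensing, averaged 71.1 ± 47.0 CPM in depleted cells, 52.4 ± 39.3 in fusion cells with the control shRNA and 31.3 ± 25 in empty-vector cells, and was called in all 9 fits with 1 library left out (log2 fold change 1.27, SE 0.15, adjusted p = 0.00742). In these fits Atp2b4 was called 7 times, H2-Aa 4 times and Il2ra and Bdh1 3 times.

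Ccr3, the eotaxin receptor, rose by 1.56 (adjusted p = 0.0322). Foxp1, Bahcc1 and the higher genes that follow lie outside the naming rule and were chosen after their values were seen. Clec4e, a lectin receptor of macrophages, rose by 1.33 (adjusted p = 0.0267). Tnfsf10, the death ligand TRAIL, rose by 1.10 (adjusted p = 0.0348), and Gbp2, an interferon-induced GTPase, by 1.29 (adjusted p = 0.0194). Adcy6, an adenylyl cyclase, rose by 1.77 (adjusted p = 0.0245), and Hrh2, a histamine receptor, by 0.81 (adjusted p = 0.0301). With 1 library left out, Gbp2 was called in 5 of 9 fits, Adcy6 in 4, Hrh2 in 3, Clec4e and Tnfsf10 in 2 and Ccr3 in 1. The remaining higher genes were Apbb1, Cep85l, Glipr2, Fam117a, Asphd2, Fam234b, Arhgef3, Ints6l, Hacd4, Gk, Cd244a, Tulp3, Lamc1, Il27ra, Golim4 and Ube3c, with log2 fold changes between 0.53 and 1.75. Not all of them rose with the fusion alone. In control-shRNA fusion cells their log2 fold changes over empty vector ran from -0.03 for Ube3c to 1.49 for Cep85l.

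The genes of the 2 fusion partners rose too. Nsd1 (chromosome 13, 55209782 to 55318325) was at 807, 966 and 907 CPM with shNizp1#1, at 711, 598 and 791 CPM with shNizp1#2, at 788, 699 and 745 CPM in fusion cells with the control shRNA and at 185, 230 and 139 CPM in empty-vector cells. The groups with and without the construct did not overlap. Replicate 3, where Hoxa9 was highest, was the highest for Nsd1 with shNizp1#2 but not with shNizp1#1 or the control shRNA. It was also the lowest of the empty-vector libraries (139 CPM), so these levels do not give the order of the rise over the matched libraries. The log2 fold change over empty vector was 2.12 (SE 0.19, adjusted p = 0.00225). Nup98 (chromosome 7, 102119398 to 102210176) averaged 313 ± 60.5 CPM in depleted cells, 282 ± 39.3 in fusion cells with the control shRNA and 129 ± 29.5 in empty-vector cells (log2 fold change 1.29, SE 0.15, adjusted p = 0.00765). It lost its call without empty-vector replicate 1 or 3. Construct-derived reads may fall into either gene, and the share of the endogenous transcripts was not measured. Between depleted cells and fusion cells with the control shRNA, Nsd1 differed by 0.09 (95% interval -0.22 to 0.40) and Nup98 by 0.14 (-0.07 to 0.35).

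**Figure D2:**
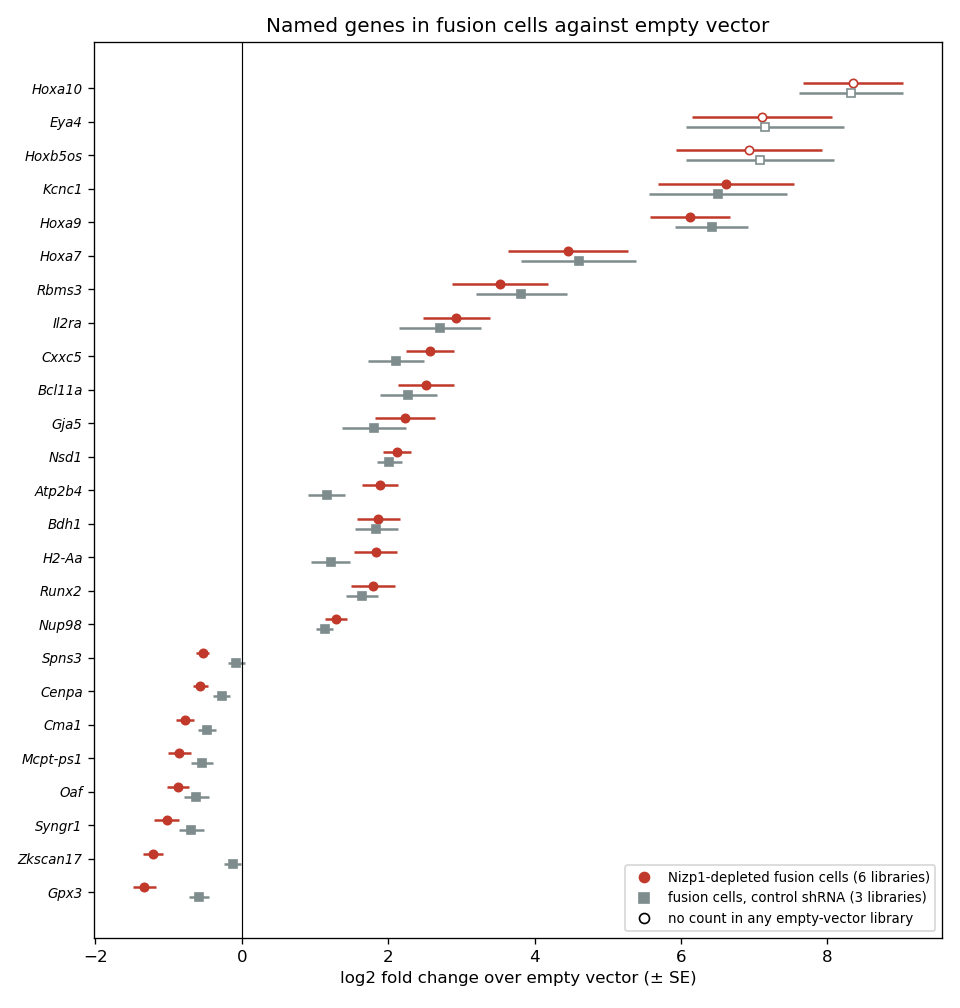
Log2 fold change over empty vector (x axis, ± SE) of the genes named by the rule, for depleted fusion cells (circles) and for fusion cells with the control shRNA (squares), from the same 3 empty-vector libraries. Open symbols are genes with no count in the empty vector, whose fitted value depends on the fit, and from Hoxa10 to Nup98 both groups lie above 0.

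Of the 9 lower genes, Gpx3, a secreted glutathione peroxidase (chromosome 11, 54902772 to 54910377), was at 18.6, 16.5 and 28.2 CPM with shNizp1#1 and at 22.0, 29.7 and 33.2 CPM with shNizp1#2, against 39.0, 40.8 and 43.8 CPM in fusion cells with the control shRNA and 56.3, 57.0 and 73.4 CPM in empty-vector cells. No group overlapped with another, apart from the shRNAs with each other, and the log2 fold change over empty vector was -1.33 (SE 0.16, adjusted p = 0.00749). Syngr1, a vesicle membrane protein, fell by 1.03 (SE 0.17, adjusted p = 0.0279), and Oaf, a gene of little known function, fell by 0.87 (SE 0.15, adjusted p = 0.0380). The mast cell chymase Cma1 (chromosome 14, 55941451 to 55944675) averaged 9268 ± 3162 CPM in depleted cells, 11324 ± 3863 in fusion cells with the control shRNA and 15077 ± 2776 in empty-vector cells, and the log2 fold change was -0.77 (SE 0.12, adjusted p = 0.0279). Its neighbour Mcpt-ps1, an annotated mast cell protease pseudogene, fell by 0.85 (SE 0.16, adjusted p = 0.0499), and both can share reads with other proteases of the family. Exons of Cma2, with 1846 counts over the 12 libraries against 3307 of Mcpt-ps1, lie on the opposite strand of the bases of Mcpt-ps1. Cenpa, the histone H3 variant of centromeres, fell by 0.57 (SE 0.10, adjusted p = 0.0350), and Spns3, a putative transporter, fell by 0.54 (SE 0.09, adjusted p = 0.0351). Cstdc5, a stefin-like protease inhibitor gene with close copies, fell by 1.45 (SE 0.22, adjusted p = 0.0301), with 0.00 to 27.8 CPM in depleted cells and 0.00 to 59.7 CPM in empty-vector cells, both at 0.00 in replicate 3. Of these, Cenpa, Oaf and Spns3 were called in 0 of the 9 fits with 1 library left out Mcpt-ps1 in 1, Cstdc5 in 2, Cma1 in 3, Syngr1 in 4 and Gpx3 in 8, the exception being the fit without empty-vector replicate 3.

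The title of the series puts Nizp1 among the regulators of NUP98-NSD1, so the fusion programme was next compared between fusion cells with and without its depletion. Fusion cells with the control shRNA share the empty-vector libraries with the comparison above, so the counts here are given side by side and not as independent support. In those cells 30 genes (0.250% of 11994) were higher and 3 (0.0250%) lower than with the empty vector. The 19 genes called higher in both were 45.2% of the 42 and 63.3% of the 30, and 41 of the 42 and 8 of the 9 had the same sign in the control-shRNA fusion cells, the exceptions being Ube3c and Cstdc5. Of the 30 genes raised in control-shRNA fusion cells, all 30 were above 0 in depleted cells and 11 were not called there.

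The direct test between depleted and control-shRNA fusion cells called 20 genes higher (0.167%) and 23 lower (0.192%), and 0 of the 30 fusion-raised genes were among them. For 24 of the 30 the 95% interval of the difference lay within 1 log2 unit of 0, with no share over all tested genes given beside it. Differences ran from -1.82 to 0.50 with a median of -0.06, and 18 of the 30 were below 0. The control-shRNA fusion libraries that chose the 30 are subtracted here, so the choice itself favours values below 0. A count of 0 of 30 is also about what the share over all tested genes (0.359%) gives. Hoxa10 differed by -0.01 (95% interval -0.48 to 0.47), Hoxa9 by -0.30 (-0.79 to 0.18), Hoxa7 by -0.15 (-0.99 to 0.70), Eya4 by -0.04 (-0.90 to 0.82) and Kcnc1 by 0.15 (-0.76 to 1.06). The lower limits of all 5 lie above -1, and that of Hoxa7 lies nearest to it. The lowest difference was that of Dkk2, a secreted regulator of Wnt signalling. Dkk2 was at 2.62, 0.558 and 0.694 CPM with shNizp1#1 and at 3.42, 0.309 and 2.20 CPM with shNizp1#2, against 7.88, 4.29 and 3.53 CPM in fusion cells with the control shRNA and 0.353, 0.498 and 0.217 CPM in empty-vector cells. All 6 depleted libraries lay below all 3 control-shRNA fusion libraries, but the difference of -1.82 (-2.72 to -0.91) missed the threshold (adjusted p = 0.0985), as did the depleted-over-empty log2 fold change of 2.14 (adjusted p = 0.227). Robo1, a guidance receptor, and Peli3, a ubiquitin ligase, were also called in control-shRNA fusion cells and not in the pooled depleted cells, with depleted-over-empty values of 5.46 (adjusted p = 0.0827) and 3.38 (adjusted p = 0.0943) and differences of -0.08 (-0.98 to 0.83) and -0.75 (-1.62 to 0.13). In the fit with a mean for each shRNA, both were called with shNizp1#2 (Robo1 5.97, adjusted p = 0.0122, Peli3 3.80, adjusted p = 0.0267). Neither was called with shNizp1#1 (4.55, adjusted p = 0.0511, and 2.75, adjusted p = 0.0896).

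Of the 51 genes called against the empty vector, 7 differed between depleted and control-shRNA fusion cells. The depleted libraries that chose the 51 also enter this difference, so its sign is not independent of the choice. Golim4, a Golgi membrane protein, differed by 0.43 (95% interval 0.26 to 0.61, adjusted p = 0.0406), Ube3c, a ubiquitin ligase, by 0.56 (0.35 to 0.77, adjusted p = 0.0264), Cd244a, a receptor of the SLAM family, by 0.48 (0.28 to 0.68, adjusted p = 0.0460) and Glipr2, a Golgi-associated protein, by 0.97 (0.56 to 1.38, adjusted p = 0.0479). Ube3c was at 79.0, 67.5 and 88.9 CPM with shNizp1#1 and at 79.1, 77.1 and 84.1 CPM with shNizp1#2, above all libraries with the control shRNA (58.7, 40.1 and 64.6 CPM with the fusion, 56.1, 47.3 and 61.7 CPM with the empty vector). Lower genes that differed were Zkscan17, Gpx3 at -0.76 (-1.02 to -0.50, adjusted p = 0.0172) and Cstdc5 at -1.59 (-2.06 to -1.12, adjusted p = 0.00870). Zkscan17 held its call with each of 9 libraries left out in turn, with adjusted p values up to 0.0172. Golim4, Ube3c, Cd244a and Glipr2 lost theirs in all 9 of these fits, Gpx3 lost it without control-shRNA fusion replicate 1, 2 or 3 or shNizp1#2 replicate 1 or 3, and Cstdc5 without control-shRNA fusion replicate 1 or shNizp1#2 replicate 1. Without the replicate block 0 genes differed between depleted and control-shRNA fusion cells.

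**Figure D3:**
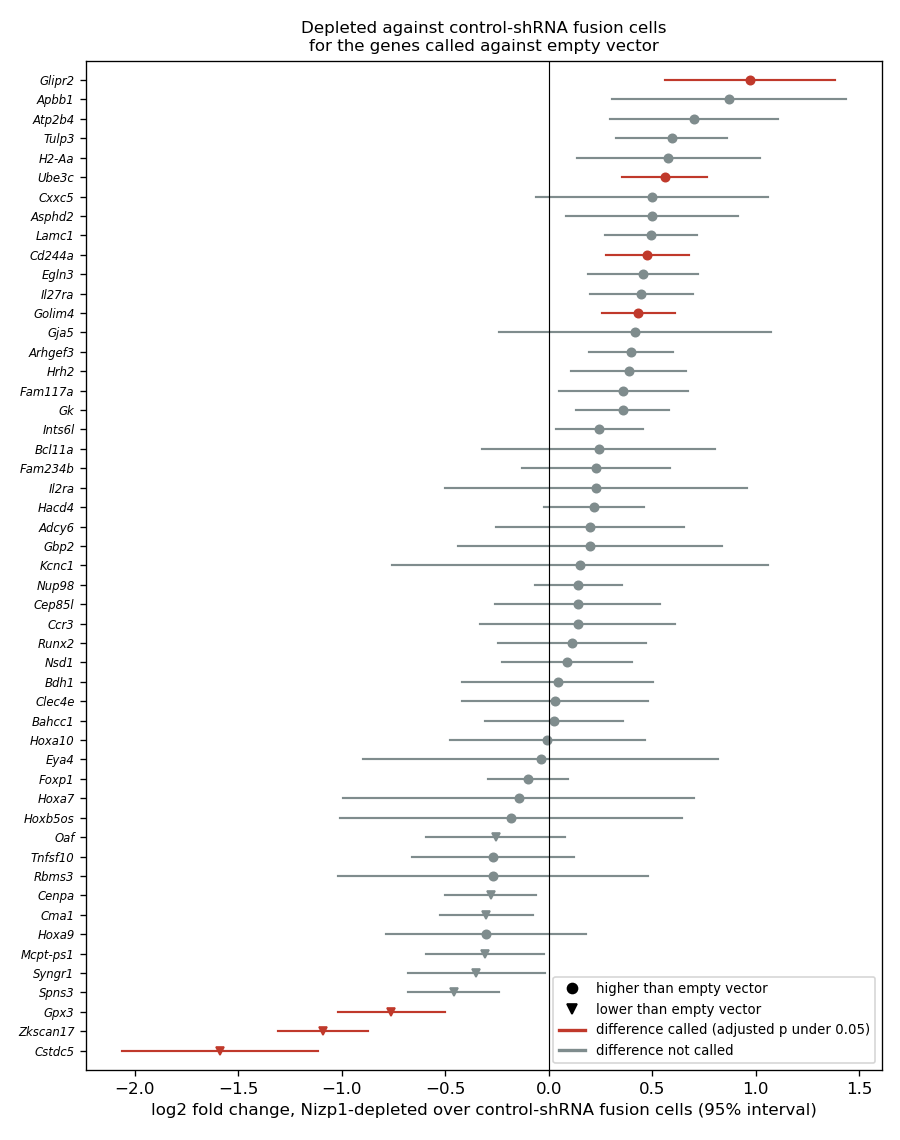
Log2 difference between depleted and control-shRNA fusion cells (x axis, with 95% interval) for the 51 genes called against the empty vector, with circles for genes higher and triangles for genes lower than the empty vector. The 7 called differences are in red, and the HoxA genes, Kcnc1 and Eya4 lie near 0 with intervals that cross it.

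No called gene was shown to differ between the 2 shRNAs. Of the 51 genes, 0 differed between the shRNAs (smallest adjusted p 0.167, for H2-Aa), against 159 of all tested genes (1.33%, 1.04% higher and 0.283% lower with shNizp1#2). The fit that chose the 51 pools both shRNAs and so works against genes that differ between them. A count of 0 of 51 is also about what a share of 1.33% gives, so it is no evidence that the shRNAs agree. At an unadjusted p under 0.05, 8 of the 51 differed, and for 42 the 95% interval of the difference lay within 1 log2 unit of 0. The share of all tested genes meeting these 2 criteria is not given here, so neither count is set against a background. The log2 fold changes of Hoxa9 over empty vector were 5.95 with shNizp1#1 and 6.31 with shNizp1#2, with a difference of the second over the first between -0.27 and 0.99 (95% interval). In a fit with a mean for each shRNA, 41 of the 42 higher and 7 of the 9 lower genes were called with shNizp1#1, and 40 and 8 with shNizp1#2. Of all tested genes, 0.692% were higher and 0.892% lower with shNizp1#1 (1.58% in all), and 0.792% and 0.225% with shNizp1#2 (1.02%). Fits on the libraries of 1 shRNA and the empty vector alone called 6 higher and 1 lower with shNizp1#1 and 22 and 6 with shNizp1#2.

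Counts of called list members stand beside 0.350% higher and 0.0750% lower of all tested genes, so that 0 called in a list of this size is what the background share gives. Of 22 tested regulators of leukaemic self-renewal 2 were called higher, Bcl11a and Cxxc5, with a median of 0.31. Of 14 genes of the fusion partners and of lysine 36 methylation, Nsd1 and Nup98 were called higher and Zkscan17 lower, with a median of 0.06. Stem and progenitor genes had 0 of 16 called with a median of 0.22, and Wnt ligands, receptors and inhibitors 0 of 10 with a median of 0.02. The 3 tested HoxA genes had a median of 6.13, or 5.38 when Hoxa10 is set to its lower bound and Hoxa7 to its count ratio. They passed the filter on low counts only through the fusion groups, so this median is no measure of the 12 genes of the list.

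Markers of mature myeloid cells had medians on either side of 0, with H2-Aa and Ccr3 called higher and Cma1 called lower. Of 22 neutrophil maturation genes 0 were called, with a median of -0.41 and 16 below 0, and 4 were called lower against control-shRNA fusion cells. Their summed level ran from 131 to 2324 CPM in depleted cells, 107 to 2186 in control-shRNA fusion cells and 73.4 to 2143 in empty-vector cells. Most of this spread lay between replicate numbers. In replicates 1, 2 and 3 the sum was 403, 1299 and 142 CPM with shNizp1#1 and 586, 2324 and 131 CPM with shNizp1#2. It was 705, 2186 and 107 CPM in control-shRNA fusion cells and 627, 2143 and 73.4 CPM with the empty vector. The shNizp1#1 sum was thus the lowest in replicates 1 and 2 and the highest in replicate 3. Monocyte and macrophage genes had 0 of 19 called with 17 above 0 and a median of 0.64. Their sum ran from 806 to 5690 CPM, 490 to 4720 CPM and 346 to 3311 CPM in depleted, control-shRNA fusion and empty-vector cells. In replicate 1 both depleted sums (1529 and 1830 CPM) were below the empty vector (2353 CPM). They were above it in replicate 2 (5293 and 5690 against 3311 CPM) and replicate 3 (1601 and 806 against 346 CPM). Dendritic cell and MHC class II genes had 1 of 10 called, H2-Aa, all 10 above 0 and a median of 1.48, with sums of 108 to 644 CPM, 98.1 to 467 CPM and 56.0 to 202 CPM. By replicate number, the sum was 388 and 194 CPM in depleted cells against 119 CPM with the empty vector in replicate 1, 498 and 644 against 202 in replicate 2, and 205 and 108 against 56.0 in replicate 3, higher in all 6 pairs. Clec10a, a lectin gene of that list, made up most of the sum with shNizp1#1 in replicates 1 and 3 (248 and 122 CPM). It was at 94.9 CPM in replicate 2 with shNizp1#1. In replicates 1, 2 and 3 it was at 51.9, 22.6 and 15.7 CPM with shNizp1#2 and at 26.5, 27.1 and 15.2 CPM with the empty vector. The eosinophil list had Ccr3 called of 6, with a median of -0.04. Fewer cells of a type and less RNA per cell cannot be told apart in such bulk libraries, and the part of these other cells in Ccr3, Clec4e, H2-Aa or Cstdc5 was not tested. The mast cell list had 1 of 21 called, Cma1, with a median of -0.06, and the megakaryocyte list 0 of 9 with a median of -0.04.

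Genes of cholesterol synthesis and the cell cycle had medians below 0 with none called on these lists. All 22 cholesterol synthesis genes were below 0 with a median of -0.40, and 0 were called. In replicate 1 their sum was 4100 and 4256 CPM in depleted cells against 4065 CPM with the empty vector. It was 2175 and 2520 against 3473 CPM in replicate 2, and 2500 and 3715 against 4570 CPM in replicate 3. All 22 genes of the G2 and M phases were below 0 with a median of -0.33, and 0 were called, with Top2a at -0.31 (adjusted p = 0.343) and Mki67 at -0.21 (adjusted p = 0.463). S phase genes had a median of -0.22 with 18 of 20 below 0. Replicate 2 of both shRNAs stood apart here: the summed G2 and M level was 1796 and 2014 CPM in those libraries, against 3066 to 3188 CPM in the other 4 depleted libraries, 2795 to 3131 CPM in control-shRNA fusion cells and 3136 to 3461 CPM in empty-vector cells. Interferon-stimulated genes had 0 of 26 called with 25 above 0 and a median of 0.61; Ddx58, an RNA sensor, was at 0.36 (adjusted p = 0.272), and the list's median in control-shRNA fusion cells was 1.07. There replicate 2 stood apart, with a summed level of 466, 3537 and 324 CPM in replicates 1, 2 and 3 of control-shRNA fusion cells, against 403, 1321 and 317 CPM in empty-vector cells. Of 21 glycolysis and hypoxia genes Egln3 was called, with a median of -0.01, of 5 EYA-family and related factors Eya4, with a median of 0.27, and of 6 voltage-gated potassium channels Kcnc1, with a median of 0.15. Immediate early genes had 0 of 19 called with a median of 0.41, CDK inhibitors and D cyclins 0 of 11 with 0.14, and ribosome biogenesis genes 0 of 24 with -0.07. The immediate early sum was above the empty vector only in replicate 2 (10338 and 9983 against 5798 CPM). It was below in replicate 1 (3417 and 3551 against 4513 CPM) and replicate 3 (1393 and 1513 against 1696 CPM). Cytokines and their receptors had 0 of 19 called with a median of 0.04, and primary granule genes 0 of 7 with -0.18. Erythroid, T and NK cell, and stromal and endothelial genes had 0 of 4 called each, with medians of 0.08, 0.02 and 0.09. No B cell, HoxC or HoxD gene passed the filter on low counts.

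**Figure D4:**
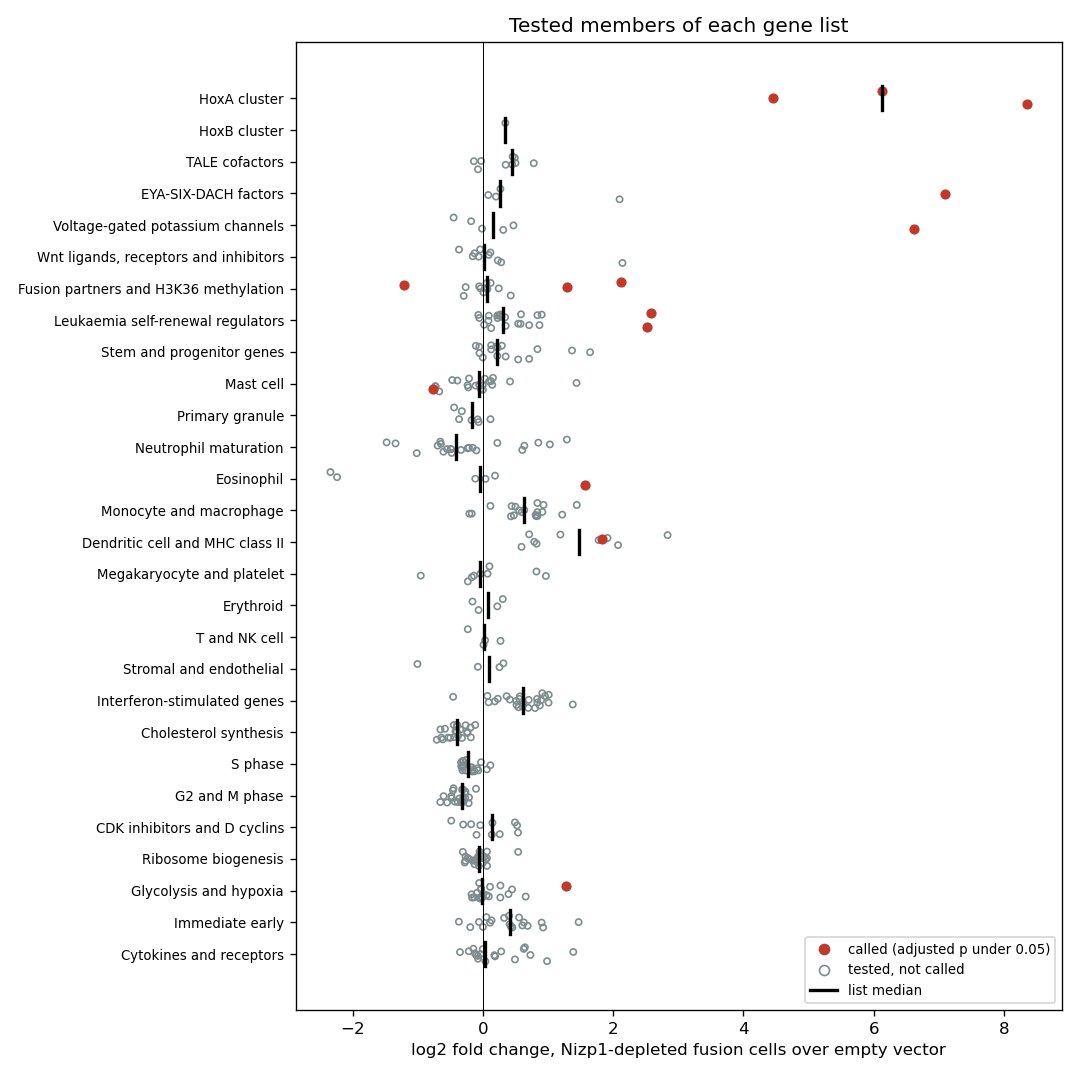
Log2 fold change of depleted fusion cells over empty vector (x axis) for each tested member of the gene lists that had one, with called genes filled, other genes open and the list median as a bar. Nearly all members lie between -2 and 2, and the HoxA genes shown are the 3 of 12 listed genes that passed the filter on low counts.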

How the data were processed

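RNA of 12 libraries was measured, and the authors deposited whole-number read counts per gene for mm10. Per the labels' protocols, the libraries came from 1 µg of RNA and a stranded poly(A) kit. Per the submitters' processing notes, Trimmomatic 0.32, STAR 2.5.3a and featureCounts were used. The sources used here do not give the strand setting, annotation release or featureCounts version, and 15 of the 51 called genes have exons overlapping a counted gene, 2 of them on the same strand. Of 55376 genes, 31694 had no count. Totals ran from 3586538 to 6842589 per library, and 3 counts correspond to 0.417 to 0.837 CPM. Intervals of count ratios and the floors cover counting error only, as the reads have no molecular identifiers, while intervals of log2 differences come from the SE of the fit over libraries. Replicates differed beyond sampling noise.

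Counts were fitted with edgeR 4.0.16 in R 4.3.3 (TMM scaling, low-count filter, robust quasi-likelihood fit, replicate block), and a gene was called at a Benjamini-Hochberg adjusted p under 0.05. The 2-group comparison used 9 libraries (11993 genes tested), the comparisons with control-shRNA fusion cells all 12 (11994 genes), and those between shRNAs 9 libraries with a mean each. CPM used effective library sizes over 12 libraries. Replicate numbers, which the labels do not tie to an experiment in words, paired the libraries: residuals of same-number libraries correlated in all 18 pairs (r from 0.22 to 0.88, median 0.74, against -0.20 for other pairs). DESeq2 1.42.0, limma 3.58.1 (voom), other scalings and fits with libraries left out were alternatives, and the scripts were tested on simulated data.

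Named genes were Zkscan17, Nup98, Nsd1, Hoxa9, Hoxa10, Kcnc1 and Eya4, the 15 and 10 called genes with the largest rise and fall (at least 2 CPM in the higher group, the same direction in all 6 pairs), called list members, and some highly expressed uncalled list members. Dkk2, Robo1 and Peli3 were added after their values were seen. The 30 lists held 533 entries, 376 of them tested. Libraries, lists and genes were chosen with earlier results of these data known. Promoter letters come from RefSeq (GRCm38.p6).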

Additional observations from a re-analysis of the deposited data

Results flagged for a closer look

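Ints6l, a paralog of an Integrator complex subunit that is higher in depleted cells, was at 224 CPM in the shNizp1#2 library of replicate 1, against 151 to 178 CPM in the other 5 depleted libraries. Gk, glycerol kinase, was at 73.4 CPM in the same library, against 56.2 to 61.0 CPM in the others. In both genes that library stood further from its group than Dixon's test allows for 6 samples. Replicate 1 was also the highest of its group for Ints6l in control-shRNA fusion cells (163 CPM) and empty-vector cells (127 CPM), and for Gk (60.7 and 43.2 CPM). Chance flags about 1 in 20 groups, and 51 genes were looked at.

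S100a9, a calcium-binding protein of neutrophils, differed between the shRNAs, with a log2 fold change of 0.848 for shNizp1#2 over shNizp1#1 (adjusted p = 0.0311, edgeR). It was at 98.5, 403 and 0.440 CPM with shNizp1#2 and at 52.8, 232 and 0.278 CPM with shNizp1#1. The level was higher with shNizp1#2 in replicates 1 and 2. In replicate 3 both libraries were at or below 3 counts (0.440 CPM with shNizp1#2 and 0.417 CPM with shNizp1#1), too few to compare. Control-shRNA fusion cells had 137, 453 and 0.785 CPM and empty-vector cells 111, 563 and 0.00 CPM.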

How the results depend on the processing

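None of the 62 genes followed changed the sign of its value against the empty vector under an alternative. Differences from control-shRNA fusion cells were followed for 7 genes, and list medians were not. Main counts were 42 genes higher and 9 lower than with the empty vector, 43 differing from control-shRNA fusion cells, 33 in control-shRNA fusion cells against the empty vector and 159 between the shRNAs. Without the replicate block these became 1 (Nsd1), 0, 0, 1 and 0; the cause was not tested. The last 2 unblocked fits were added after seeing the data. With the block, counts higher and lower were 203 and 165 with all 12 libraries and 4 group means, 95 and 55 with 9 libraries and 3 means, 161 and 59 with DESeq2, and 427 and 293 with no filter on low counts (22801 genes); the cause was not tested. Of the 42 higher genes 41, 42, 42 and 42 were called in these 4 fits, and 55.2%, 63.3%, 73.2% and 59.3% of the calls were higher, against 82.4%. Limma-voom, RLE and upper-quartile scaling gave 37 and 12, 38 and 8, and 40 and 8. With fewer samples, shNizp1#1 alone gave 6 and 1, shNizp1#2 alone 22 and 6, fits without replicate number 1 or 3 gave 0 and 0, and the fit without replicate number 2 gave 27 and 4. Of the 42 higher genes, 3, 12, 0, 0 and 20 were among the calls of these 5 fits, and 9 of the 42 without empty-vector replicate 1. Leaving out 1 library gave 3 to 45 higher and 0 to 9 lower genes, and 3 (without control-shRNA fusion replicate 3) to 24 (without shNizp1#1 replicate 1) genes differing from control-shRNA fusion cells. Hoxa9, Nsd1 and Egln3 kept their call in all 9 such fits against the empty vector. Over these 62 genes, 775 values kept direction and side of the threshold, 550 lost the call and 12 gained it. At this depth Hoxa3, Hoxa5, Hoxa6 and Hoxb3 held too few counts to be tested.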
